A study of Mus musculus with 3 samples.

Results

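The Rab GTPases are the small GTP-binding proteins that mark the membranes of the secretory and endocytic pathways. Every single-gene probe set whose symbol is Rab, a number and at most 1 letter was taken, which leaves out effectors such as Rab11fip1. The rule found 59 genes, read by 62 probe sets, among 19938 named genes on the array. It used no measured value. Affymetrix Mouse Gene ST arrays read the RNA of sorted mouse spleen dendritic cells (DCs), with 1 array for each of 3 groups. Control Esam(hi) cells were CD11c(high) CD11b+ Esam(hi) GFP(lo), control Esam(lo) cells were CD11c(high) CD11b+ Esam(lo) GFP(hi), and the array labelled RBPJ-null held cells with the same surface phenotype as control Esam(lo). Per the series' design text all mice carried the Cx3cr1-GFP reporter and RBPJflox/flox alleles; the RBPJ-null cells came from mice that also carried CD11c-Cre, which deletes in cells that express CD11c, and the controls were littermates with no Cre. Each array holds pooled spleens of 2 to 3 mice, depleted of lymphoid and erythroid cells before the sort, and the labels do not state an age. The purpose, per the series title, was to follow Notch2 receptor signalling, whose nuclear partner is RBPJ, in DC differentiation.

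A Rab protein switches between an inactive form bound to GDP and an active form bound to GTP. Exchange factors load GTP at a chosen membrane, the active Rab then recruits effectors such as tethers and motors, GTPase-activating proteins end the cycle, and GDP dissociation inhibitors return the prenylated protein to the cytosol. In DCs this traffic carries antigen from the surface to endosomes and lysosomes, and carries peptide-loaded MHC molecules back out.

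Since each group has a single array, replicate error is unknown, no test was made, and every difference compares arrays, not conditions. Values are deposited log2 values; a difference of 1 is 2-fold. A gene was called apart when the values were at least 2-fold apart and the brighter array lay above background, taken per array as the 95th percentile over 1190 receptor genes of smell (olfactory and vomeronasal). Background was 7.16 for control Esam(hi), 6.75 for control Esam(lo) and 6.87 for RBPJ-null. Rbpj itself read 9.85, 9.85 and 10.04 in that order. Where its probes lie relative to the deleted exons is not known here, so the values do not check the label. Esam read 7.79, 6.57 and 6.12, above background on the control Esam(hi) array alone. All 6 classical DC markers (Itgax, Flt3, Zbtb46, H2-Ab1, Cd74, Ccr7) were above background on all 3 arrays. Fewer cells of a type and less RNA per cell cannot be told apart in such bulk samples.

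Sequence upstream of 5 members is shown first, because the study removes RBPJ, which binds DNA itself. Promoter sequences were taken from RefSeq (GRCm38.p6), which gave an entry for 48 of the 59 members. The first 4 below belong to Rab31, Rab32, Rab35 and Rab1b, which were at least 2-fold lower on the control Esam(hi) array. The last belongs to Rab9, the only printed member with the letters of the RBPJ site. All end at the base before the gene's annotated start and read 5′ to 3′. Rab31 lies at chr17:65772753-65773002 on the minus strand, Rab32 at chr10:10558208-10558457 on the minus strand, Rab35 at chr5:115631737-115631903 on the plus strand, Rab1b at chr19:5106997-5107246 on the minus strand and Rab9 at chrX:166479868-166480117 on the minus strand. Capitals mark any of 3 motifs, or its reverse complement, chosen after the sequences were seen and searched on both strands: GTGGGAA (RBPJ), AGGAAGT (ETS family, which includes PU.1) and CACGTG (the E-box in the CLEAR element of lysosomal genes).
Rab31: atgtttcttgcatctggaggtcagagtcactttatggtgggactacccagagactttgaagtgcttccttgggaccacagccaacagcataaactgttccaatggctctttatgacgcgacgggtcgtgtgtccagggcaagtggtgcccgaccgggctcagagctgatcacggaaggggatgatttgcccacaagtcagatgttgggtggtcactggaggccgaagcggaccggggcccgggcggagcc
Rab32: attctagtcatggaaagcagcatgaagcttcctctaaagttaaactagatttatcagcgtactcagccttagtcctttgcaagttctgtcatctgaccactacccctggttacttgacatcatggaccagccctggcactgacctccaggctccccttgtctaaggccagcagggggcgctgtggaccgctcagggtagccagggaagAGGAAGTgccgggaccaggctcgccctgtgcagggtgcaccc
Rab35: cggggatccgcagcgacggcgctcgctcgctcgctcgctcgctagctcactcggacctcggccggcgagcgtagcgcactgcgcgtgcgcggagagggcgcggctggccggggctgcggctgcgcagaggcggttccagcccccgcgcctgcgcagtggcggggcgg
Rab1b: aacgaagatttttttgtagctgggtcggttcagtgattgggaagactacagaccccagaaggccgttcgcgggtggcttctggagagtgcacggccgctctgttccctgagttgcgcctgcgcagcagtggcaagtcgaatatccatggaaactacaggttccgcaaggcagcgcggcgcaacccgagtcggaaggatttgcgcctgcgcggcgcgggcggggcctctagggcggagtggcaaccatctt
Rab9: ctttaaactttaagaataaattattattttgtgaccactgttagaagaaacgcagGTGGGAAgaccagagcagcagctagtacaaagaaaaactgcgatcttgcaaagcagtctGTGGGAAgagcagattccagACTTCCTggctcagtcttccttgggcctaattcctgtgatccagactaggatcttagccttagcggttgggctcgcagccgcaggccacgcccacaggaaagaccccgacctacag

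Rab9 held GTGGGAA 2 times and AGGAAGT 1 time, Rab32 held AGGAAGT 1 time, and the Rab31, Rab35 and Rab1b windows held none of the 3. The printed Rab35 stretch has 167 bases, since its annotated start lies within the window. For the shares, the first 250 bases of every RefSeq entry were searched, Rab35 included. GTGGGAA was present in 4 of 48 Rab promoters (8.33%: Rab1a, Rab9, Rab21, Rab33a), against 5.41% of 27025 promoters of all genes. The letters AGGAAGT stood in 5 (10.4%: Rab2b, Rab6a, Rab9, Rab13, Rab32), against 7.80%. The E-box CACGTG stood in 4 (8.33%: Rab5a, Rab20, Rab21, Rab23), against 6.05%. A match is a description of letters and shows no binding. Rab promoters were rich in G and C: their median GC content was 60.6%, with 16 CpG dinucleotides in the window, against 52.0% and 6 over all promoters. Among the 34 members with an entry that were above background on at least 1 array the median was 19 CpG, and among the 14 that were not it was 8.5. The promoters of all genes were not split in this way, so this contrast has no background.

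Of the 59 Rab genes, 41 (69.5%) were above background on at least 1 array, against 48.9% of all named genes. On all 3 arrays 34 were above background. Rab2b, Rab3d, Rab7b, Rab18, Rab28 and Rab38 passed on both Esam(lo) arrays and not on Esam(hi), and Rab19 passed on the control Esam(lo) array alone. These 7 entered only through the Esam(lo) arrays. Of them, Rab28 (6.95) and Rab38 (6.97) had the same value on all 3 arrays and missed on Esam(hi) only because its background is higher. The 18 members below background on every array were Rab3a, Rab3b, Rab3c, Rab13, Rab15, Rab17, Rab23, Rab25, Rab26, Rab27b, Rab33a, Rab34, Rab36, Rab37, Rab39, Rab39b, Rab40b and Rab42. Several of these are known from neurons, neuroendocrine cells or epithelia, such as the Rab3 forms of synaptic vesicles and Rab25 of epithelial recycling. By role, members above background numbered 11 of 16 for the endoplasmic reticulum and Golgi, 8 of 9 for early endosomes and phagosomes, 4 of 4 for late endosomes and lysosomes, 10 of 13 for recycling and surface transport, 6 of 12 for regulated secretion and lysosome-related organelles, and 2 of 5 others.

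**Figure D1:**
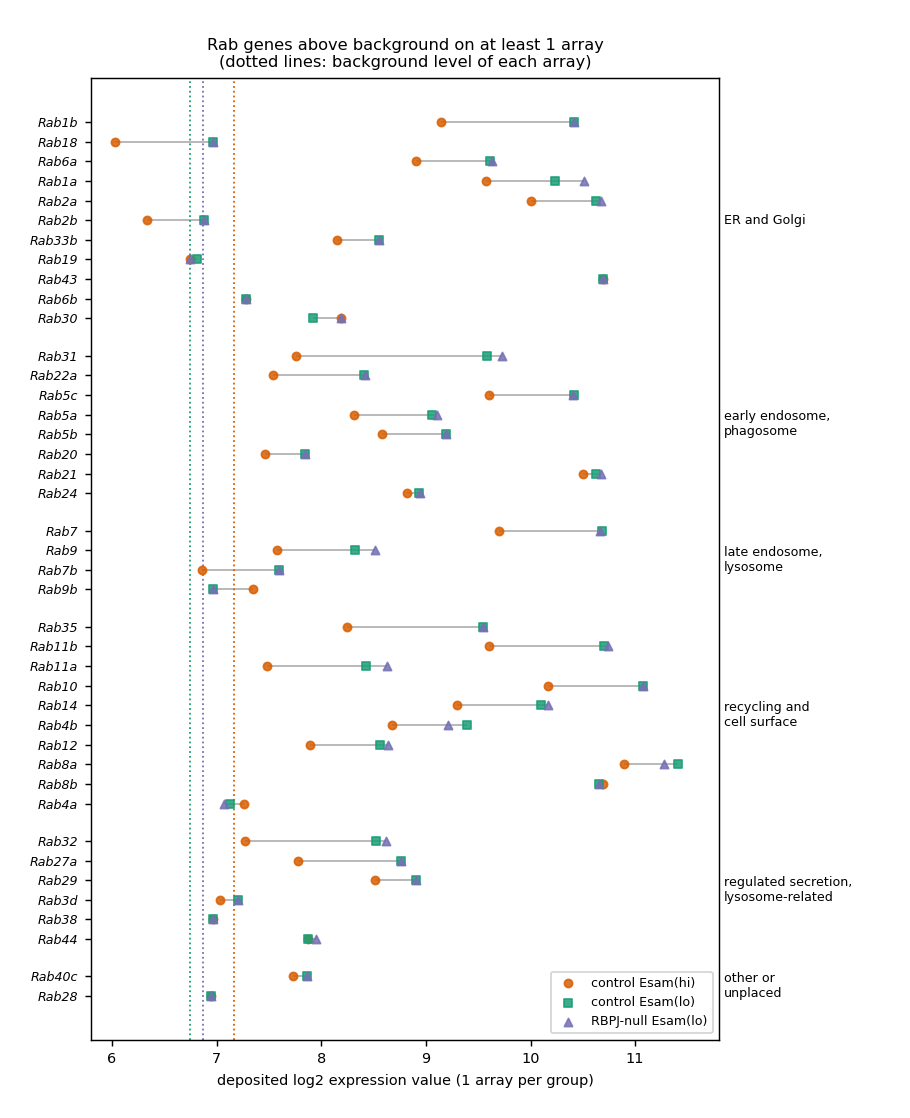
Deposited log2 values (x axis) of the 41 Rab genes above background on at least 1 array (rows, grouped by role), with 1 point per array and dotted lines at each array's background. The control Esam(lo) and RBPJ-null points nearly coincide, within 0.28 of each other in every row. The control Esam(hi) point lies to the left of the control Esam(lo) point in 32 of 41 rows.

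The first comparison asks how control Esam(hi) cells differ from control Esam(lo) cells. Of 41 Rab genes above background, 32 (78.0%) read lower in Esam(hi) cells, as did 67.5% of all genes above background. Rab31, Rab35, Rab1b, Rab32 and Rab11b were at least 2-fold lower, 5 of the 39 members whose brighter array was above background (12.8%), and none was 2-fold higher. Over all genes 11.6% were lower by this rule and 0.814% higher, so the share of Rab genes called is near the background. At 1.5-fold, 22 of 39 Rab genes (56.4%) were lower, against 32.0% of all genes, and none was higher, against 4.41%. The 22 include Rab18 and Rab7b, which lay below background on the Esam(hi) array; with such values held at background 20 were lower (51.3%), against 29.2% of all genes treated alike. The count of 5 at 2-fold was the same (12.8%), against 10.3% of all genes treated alike. The median difference of the 41 members above background was -0.62, against -0.28 over all genes above background. Of 38 members whose mean over the 3 arrays was above the mean background, 29 were lower (76.3%), against 69.5% of genes chosen in the same way. Their median was -0.64, against -0.31. Over all 59 members, with no filter, 33 were lower (55.9%), 19 higher and 7 tied, and the median was -0.13. Of all genes with no filter 7263 were lower (36.4%), 8322 higher and 4353 tied, and the median was 0.

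Differences between these arrays depended on level, so each member was also set beside genes of like level. Dim genes read slightly higher on the Esam(hi) array and brighter genes lower: the median difference of genes within 0.5 of Rab5b's level was -0.49, and that of genes near Rab13 was 0.15. With this trend subtracted the median of the 41 members was -0.24 (31 lower, 10 higher), against -0.05 over all genes (5280 lower, 4437 higher). The 41 include the 7 members that entered only through the Esam(lo) arrays, a choice that favours lower values on the Esam(hi) array. For the 38 members whose mean over the 3 arrays was above the mean background, the median was -0.24 with the trend removed. Over the 9104 genes chosen in the same way it was -0.04. At 2-fold, 3 members were then lower (7.69%), against 5.19% of all genes: Rab31, Rab32 and Rab18. Rab18 was below background on the Esam(hi) array; with such values held at background Rab31 and Rab32 were left (5.13%), against 3.57% of all genes. None was higher, against 2.03%. At 1.5-fold 11 were lower (28.2%), against 16.7% of all genes, or 8 (20.5%), against 13.4%, with dim values held at background, and none was higher, against 6.92%.

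**Figure D2:**
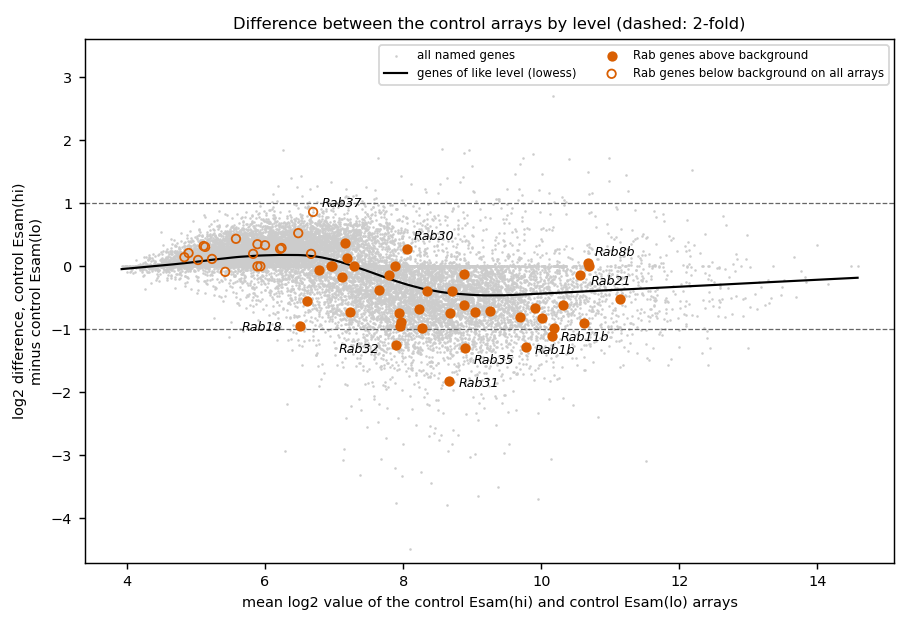
Esam(hi) minus Esam(lo) log2 difference of the controls (y axis) against the mean of both arrays (x axis) for all named genes (grey) and Rab genes (orange; open where below background on all arrays), with dashed lines at 2-fold. The black line, the trend of genes of like level, dips below 0 at higher levels, and among Rab genes Rab31 lies farthest under it, with a difference of -1.82.

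Early endosomes are where freshly taken up material is sorted, and Rab31 was the member with the largest difference. Rab31 works between the trans-Golgi network and endosomes and is closely related to Rab22a. Its values were 7.76 for control Esam(hi), 9.58 for control Esam(lo) and 9.73 for RBPJ-null. The control Esam(hi) value was 3.54-fold below the control Esam(lo) value and 3.92-fold below the RBPJ-null value. Of 2598 genes of like level, 1.66% were lower by as much or more in the control pair, and the difference was -1.40 with the trend removed. Rab22a read 7.53, 8.41 and 8.42, a difference of -0.88 in the control pair and -0.62 with the trend removed.

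The 3 Rab5 genes, which drive fusion of early endosomes, differed less. Rab5a read 8.31, 9.06 and 9.10 on the Esam(hi), Esam(lo) and RBPJ-null arrays. Rab5b read 8.58, 9.19 and 9.19, and its other probe set 8.55, 9.23 and 9.17. Rab5c read 9.60, 10.42 and 10.41. All 3 were lower on the control Esam(hi) array, by 1.68-fold, 1.53-fold and 1.76-fold, and with the trend removed by -0.32, -0.17 and -0.38 on the log2 scale. Of genes of like level, 27.4%, 40.1% and 25.2% differed as much in that direction, so none of the 3 stood apart from its level. Rab21, which carries integrins through endosomes, read 10.50, 10.63 and 10.68. Rab24, linked to autophagy, read 8.82, 8.94 and 8.95. Both had the smallest differences of the role, and once the trend was removed both lay above 0, at 0.27 and 0.33. Rab20, found on phagosomes, read 7.47, 7.85 and 7.85.

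Of the late endosomal forms, Rab7 came close to the 2-fold line. It guides late endosomes to lysosomes and read 9.69, 10.68 and 10.66, which is 1.98-fold lower on the control Esam(hi) array and -0.56 with the trend removed. Rab7b read 7.59 on both Esam(lo) arrays and 6.86, below background, on the Esam(hi) array, so its difference is a lower bound of at least 1.35-fold. Rab9, which returns mannose 6-phosphate receptors from late endosomes to the Golgi, read 7.57, 8.32 and 8.51. Its relative Rab9b went the other way in the control pair, at 7.34, 6.97 and 6.97, all just above background. Thus 3 of the 4 members were lower on the Esam(hi) array by at least 1.5-fold in measured value, against 32.0% of all genes. Rab7b is among the 3 only by a value below background, and 4 members are too few for a share. Rab9b was higher by 0.37.

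Secretory lysosomes and lysosome-related organelles use Rab27a and Rab32. Rab32, which with Rab38 sends cargo to such organelles and to vacuoles that hold bacteria, read 7.27 for control Esam(hi), barely above background, 8.53 for control Esam(lo) and 8.62 for RBPJ-null. It was 2.39-fold lower in Esam(hi) than in control Esam(lo) cells, and it stayed 2-fold apart with the trend removed, at -1.02. Rab38 read 6.97 on all 3 arrays. Rab27a, which docks secretory granules and exosome-bearing endosomes, read 7.78, 8.77 and 8.77, just short of 2-fold at 1.98-fold; the related Rab27b was below background throughout. The other members were nearer to equality. Rab29 read 8.52, 8.91 and 8.91, Rab44 read 7.88, 7.88 and 7.95, and Rab3d 7.03, 7.20 and 7.20. Rab37, a granule Rab, did not reach background on any array (7.13, 6.26 and 6.12), although 1.02% of genes of like level were as far higher on the Esam(hi) array.

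Between the endoplasmic reticulum and the Golgi, the Rab1 pair differed from each other. Rab1b, which carries the first step out of the endoplasmic reticulum, read 9.14, 10.42 and 10.42, 2.42-fold lower on the control Esam(hi) array. Rab1a, its near copy in sequence and function, read 9.57, 10.23 and 10.51, 1.58-fold lower on the Esam(hi) than on the control Esam(lo) array. With the trend removed the control differences were -0.83 and -0.22. Of genes of like level, 7.46% were as far below as Rab1b and 37.0% as far below as Rab1a. Rab6a, of traffic back through the Golgi, read 8.90, 9.62 and 9.63, and Rab2a read 10.00, 10.62 and 10.67, with a difference of -0.84 by its other probe set. Rab18, linked to lipid droplets, read 6.03, 6.97 and 6.97. Its Esam(lo) values lie under the background level of the Esam(hi) array, so it has no fold, and its difference of -1.12 with the trend removed rests on values at the edge of detection. Rab2b (6.33, 6.88 and 6.88) is in the same position.

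A few Golgi members did not follow the rest. Rab30 read 8.19, 7.92 and 8.19, 0.28 higher on the control Esam(hi) array and 0.56 higher with the trend removed. Rab43, known from cross-presentation by DCs, read 10.70 on all 3 arrays. Rab6b likewise read 7.28 throughout, and Rab19 6.75, 6.81 and 6.75. Rab33b, at 8.15, 8.55 and 8.55, matched its level (-0.03 with the trend removed). Exact ties are frequent in these values, and a tie is no evidence of equal expression.

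Members of recycling and of transport to the cell surface were lower in 8 of 10 cases, near the shares of all Rab genes (78.0%) and of all genes (67.5%). Rab35, which acts in fast recycling to the plasma membrane, read 8.24, 9.54 and 9.54, 2.46-fold lower on the control Esam(hi) array and -0.85 with the trend removed. Rab11a, of the recycling endosome, read 7.48, 8.42 and 8.63. Rab11b read 9.60, 10.70 and 10.74 by its brighter probe set, 2.14-fold lower in the control pair. Its other probe set read 6.77 on all 3 arrays and shows no difference, and RefSeq lists pseudogenes of Rab11b, so this call is uncertain. Rab10, which moves Toll-like receptor 4 to the surface, read 10.17, 11.07 and 11.07. The values of Rab14 were 9.30, 10.10 and 10.16, those of Rab12 7.89, 8.57 and 8.64, and those of Rab4b 8.67, 9.39 and 9.21. These 4 were 1.59-fold to 1.87-fold lower on the control Esam(hi) than on the control Esam(lo) array.

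The Rab8 and Rab4 pairs split. Rab8a, of exocytosis and primary cilia, read 10.89, 11.41 and 11.27, and Rab8b read 10.70, 10.65 and 10.65. Rab4a read 7.26, 7.13 and 7.07, near background, while Rab4b differed by -0.72 in the control pair. Rab8b and Rab4a were the 2 of the 10 with higher values on the control Esam(hi) array, by 0.05 and 0.13. Of the members with no firm place, Rab40c read 7.73, 7.87 and 7.87 and Rab28 read 6.95 on all arrays.

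**Figure D3:**
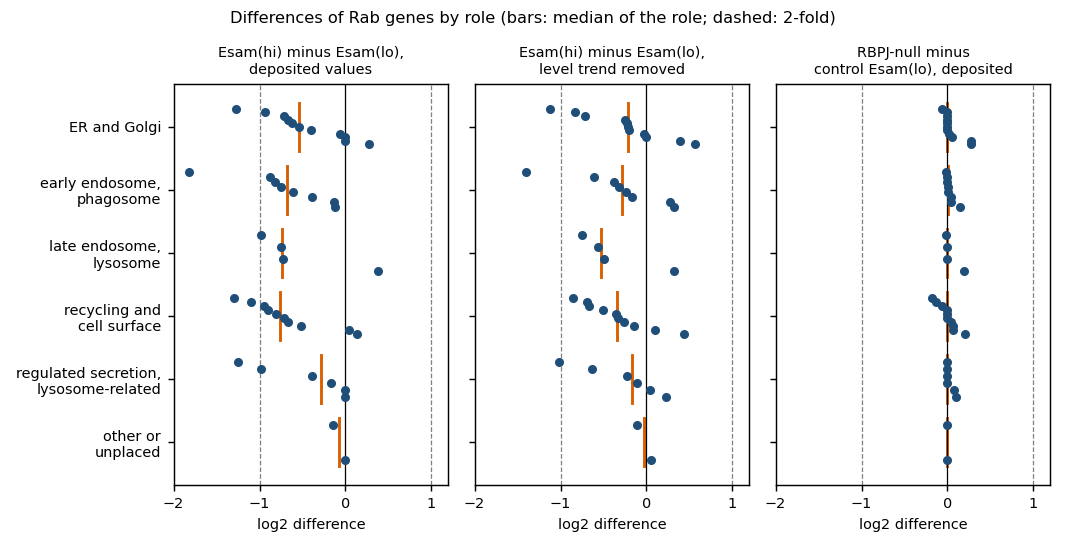
Log2 differences (x axis) of the Rab genes above background by role (rows), 1 point per gene, with bars at the role's median and dashed lines at 2-fold, as deposited, with the level trend removed, and for RBPJ-null minus control Esam(lo). The medians of the first panel run from -0.76 for recycling to -0.07 for the unplaced members, those of the second lie closer to 0, and no point of the third passes 0.28.

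The second comparison asks how the array labelled RBPJ-null differs from that of controls sharing its Esam(lo) phenotype. No Rab gene was 2-fold or 1.5-fold apart among 41 tested, where 0.266% of all genes were 2-fold and 0.906% 1.5-fold apart in either direction. Of the 41, 16 were higher (39.0%), 6 lower (14.6%) and 19 tied (46.3%), with a median of 0. Over all genes above background 28.7% were higher, 30.0% lower and 41.3% tied, also with a median of 0. Rab1a and Rab30 had the largest differences, each 0.28 higher on the array labelled RBPJ-null. Among 1029 genes of like level 4.86% were as far higher as Rab1a, and among 2768 genes 2.71% were as far higher as Rab30. The differences of Rab11a (0.20), Rab9 (0.19), Rab31 (0.15) and Rab32 (0.10) were smaller. Lower on the array labelled RBPJ-null were Rab4b (-0.18) and Rab8a (-0.13). The 4 members with the RBPJ letters differed by 0.28 (Rab1a), 0.19 (Rab9), 0.05 (Rab21) and 0 (Rab33a, below background), and no link to the letters was tested.

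The third comparison sets the array labelled RBPJ-null against the control Esam(hi) array, and it shares both arrays with the comparisons above. By the 2-fold rule 6 of 40 Rab genes were higher on the array labelled RBPJ-null (15.0%), against 12.9% of all genes, and none was lower, against 1.18% of all genes. They were Rab31 (3.92-fold), Rab32 (2.55-fold), Rab35 (2.46-fold), Rab1b (2.42-fold), Rab11a (2.21-fold) and Rab11b (2.20-fold, on the brighter probe set only). Rab37 was 2.01-fold lower on the array labelled RBPJ-null (-1.01), but it lay below background on both arrays and was not tested. With no background filter 1 member was 2-fold lower, and likewise 1 with the mean of a gene's probe sets. With the trend removed Rab31, Rab32 and Rab18 passed 2-fold (7.50%), against 5.94% of all genes; with values below background held there, Rab18 dropped out and 2 of 40 passed, against 4.14% of all genes.

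The other genes of the Rab cycle were read from lists of regulators and effectors. Of 138 genes listed, 133 were on the array and 107 above background on at least 1 of the 2 control arrays. In the control pair the brighter array was above background for 105. Of these, 4 had a value lower by 2-fold or more in Esam(hi) cells (3.81%, against 11.6% of all genes), and none was higher, against 0.814%. At 1.5-fold 18 were lower (17.1%, against 32.0%) and 1 higher (0.952%, against 4.41%). Of the 4, Dennd6a lay below background on the Esam(hi) array. With such values held at background 3 partner genes remained 2-fold lower (2.86%), against 10.3% of all genes. The median difference of the 107 partner genes above background was -0.23, close to the -0.28 of all genes. With the trend removed it was 0.08, the other sign. The Rab GTPases themselves had -0.62 and -0.24.

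Exchange factors held 3 of the 4, out of 35 from that list above background on either control array. By the same 2-fold rule 11.6% of all genes were lower. The median difference of these exchange factors was -0.28, the same as that of all genes. Once the trend was subtracted their median became 0.11, with 23 differences above 0 and 12 below. Trappc1 and Trappc2 are subunits of the TRAPP complex, the exchange factor of Rab1. Trappc1 read 8.14, 9.64 and 9.64 on the Esam(hi), Esam(lo) and RBPJ-null arrays, and Trappc2 read 7.51, 8.78 and 8.78. They were 2.83-fold and 2.40-fold lower on the control Esam(hi) array, and their differences with the trend removed were -1.06 and -0.95. Of the other 5 TRAPP subunits listed, Trappc3 differed by -0.81, Trappc4 by -0.60, Trappc5 by -0.87 and Trappc10 by -0.59, while Trappc9 tied at 8.55 on all 3 arrays. None of these 5 was 2-fold apart. Dennd6a, of the DENN family of exchange factors, read 6.65, 7.89 and 7.89, at least 1.66-fold lower because the Esam(hi) value is below background. Rin1, which activates Rab5, read 7.56, 7.02 and 6.78, with the higher value on the Esam(hi) array. Hps1 and Hps4, which together activate Rab32 and Rab38, tied on all 3 arrays at 8.49 and 8.15.

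Among GTPase-activating proteins Tbc1d2b read 7.63, 9.51 and 9.34, 3.68-fold lower on the control Esam(hi) array and -1.47 with the trend removed. Tbc1d4, known for holding Rab10 inactive in insulin-responsive cells, read 10.53, 9.71 and 10.08. It was 1.77-fold higher on the Esam(hi) than on the control Esam(lo) array and passed 2-fold with the trend removed, at 1.25. None of the 37 effectors above background was 2-fold apart in the control pair, where 11.6% of all genes were lower and 0.814% higher. Eea1, the Rab5 tether of early endosomes, read 7.16, 7.93 and 8.03, and Vps41, of the HOPS tether that works with Rab7, read 8.49, 9.35 and 9.40. Of the GDP dissociation inhibitors and prenylation genes none of 7 was 2-fold apart, too few to set against that share. Gdi2 read 11.30, 11.48 and 11.49, and the escort protein Chm read 8.16, 8.74 and 9.09. Between RBPJ-null and control Esam(lo), none of 107 partner genes tested was 1.5-fold apart, and only 0.906% of all genes were. Between RBPJ-null and control Esam(hi), Tbc1d2b, Trappc1 and Trappc2 were at least 2-fold higher on the array labelled RBPJ-null, and Dennd6a at least 1.66-fold. By measured value these were 4 of 106 partner genes tested (3.77%), against 12.9% of all genes, and none was lower, against 1.18%. With dim values held at background 3 were left (2.83%), against 11.4% of all genes.

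**Figure D4:**
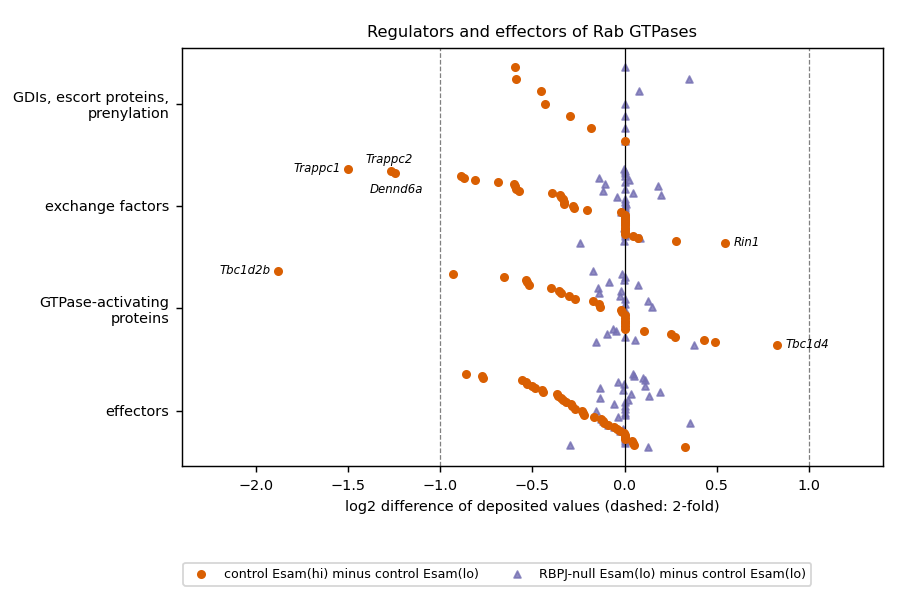
Log2 differences (x axis) of Rab regulators and effectors above background, by list (rows, genes in order of the control difference), with circles for Esam(hi) minus Esam(lo) of the controls and triangles for RBPJ-null minus control Esam(lo); dashed lines mark 2-fold. Circles reach -1.88 at Tbc1d2b, and every triangle lies between -0.30 and 0.37.

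Several marker lists of other cells differed between the control arrays in the same direction, and others did not. By the 2-fold rule 11.6% of all genes were lower on the control Esam(hi) array, and each list is short. All 6 monocyte markers measured were lower in control Esam(hi) cells by 2-fold or more, for example Csf1r at 8.62, 11.67 and 11.31. Their summed linear level was 2446.7 for control Esam(hi), 16885.1 for control Esam(lo) and 17066.5 for RBPJ-null. Neutrophil markers were 2-fold lower in 4 of 8 cases (sums 6721.6, 13523.7 and 15011.7), while Mpo was 0.96 and Elane 0.35 higher on the control Esam(hi) array. Macrophage markers were so in 2 of 8 (sums 2145.0, 3046.2 and 2999.2), with Mertk and Cd163 below background on all arrays. The CD8+ DC markers Clec9a and Naaa were also 2-fold lower (list sums 1494.6, 3735.1 and 3642.1), with Xcr1 and Cd8a below background, Batf3 at 9.16, 9.03 and 8.69 and Cadm1 at 7.72, 7.75 and 7.75. Of 5 B cell markers 4, and all 6 natural killer cell markers, were below background on every array. No platelet, erythroid, B cell or T cell marker was 2-fold apart in the control pair. Among these the T cell genes Cd3e and Cd5 differed by 0.01 and 0.02. The platelet genes Itga2b and Treml1 and the erythroid gene Slc4a1 were 0.63, 0.61 and 0.66 higher on the Esam(hi) array. Itga2b and Slc4a1 passed background on that array alone and barely, at 7.22 and 7.18 against 7.16. The B cell gene Cd79b, above background on all 3 arrays, went the other way, with a difference of -0.92 in the control pair. Between RBPJ-null and control Esam(hi) it passed 2-fold, 1.08 higher on the array labelled RBPJ-null. Of 5 plasmacytoid DC markers Tcf4 was 2-fold lower in the control pair, at -1.21. The part of these cells in the Rab differences was not tested.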

How the data were processed

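Each of 3 sorted populations was measured on 1 Affymetrix array, and groups were taken from the sample titles. The authors deposited log2 values for every probe set, made with RMA and Affymetrix Expression Console per the submitters' processing notes. For versions and genome build, the sources used here give none. RMA as usually run corrects background, equalises distributions and condenses probes by median polish, which over few arrays can leave exact ties. The medians of the 3 deposited columns nevertheless differ, at 6.67, 6.55 and 6.56 over all probe sets. The number of arrays limits the precision.

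Gene names came from the platform annotation: of 35556 probe sets 21789 have 1 gene, 1621 several and 12146 none, and only the first were used. All 59 Rab symbols matched RefSeq through their Entrez numbers. The probe set with the highest mean represents a gene. Probe-set signals of different genes were not compared as levels. The level trend was a lowess fit (fraction 0.2, statsmodels 0.14.6) of the difference on the mean of both arrays. The code was tried on simulated data with little noise and large changes planted in bright genes only. That trial does not show how the fit does near background or with the noise of these arrays. Genes of like level lie within 0.5 on that mean. Lower bounds use the dimmer array's background.

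The members, lists, roles and motifs were chosen with earlier results of these data known. Named were members at least 1.5-fold apart, related pairs, bright members, and partner genes at least 2-fold apart; the other members above background were added so that each is accounted for, and other partners, such as Rin1, Tbc1d4, Hps1 or Eea1, after their values were seen. Alternatives were other scalings, filters, fold thresholds, probe-set rules and values below background held at background. With 1 array per group there is no test, p-value or replicate error.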

Additional observations from a re-analysis of the deposited data

How the results depend on the processing

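With the level trend removed 3 Rab genes were at least 2-fold apart between the control arrays, where the deposited values gave 5, and 3 between RBPJ-null and control Esam(hi), where they gave 6. In both cases Rab31 and Rab32 were shared and Rab18, at the edge of detection, was added. Centring on the array median gave 10 and 13, and a 3-fold threshold 1 and 1. Between RBPJ-null and control Esam(hi), leaving out the background filter gave 6 higher and 1 lower on the array labelled RBPJ-null. The mean of a gene's probe sets gave 5 higher and 1 lower in that comparison. A 1.5-fold threshold gave 22 lower on the control Esam(hi) array (56.4%, against 32.0% of all genes). It gave 21 higher on the array labelled RBPJ-null than on the control Esam(hi) array (52.5%, against 32.4%). The share of all genes was not counted for centring, the 3-fold threshold, the missing filter or the mean of probe sets, here or for partner genes. For partner genes, 4 in either comparison, the 1.5-fold threshold gave 19 and 23, the 3-fold threshold 1 and 1, and centring gave 8 between RBPJ-null and control Esam(hi). The 19 were 18 lower on the control Esam(hi) array (17.1%, against 32.0% of all genes) and 1 higher (0.952%, against 4.41%). The 23 were 21 higher on the array labelled RBPJ-null (19.8%, against 32.4%) and 2 lower (1.89%, against 5.68%). The median Rab difference between the control arrays, Esam(hi) minus Esam(lo), was -0.62; it became -0.24 with the trend removed, -0.34 after quantile normalization, -0.73 after centring, -0.13 with no background filter and -0.72 with the brighter array above its 75th percentile. That of RBPJ-null minus control Esam(hi), 0.64, was 0.25, 0.38, 0.76, 0.14 and 0.80 in the same order. The cause was not tested. No Rab gene was 2-fold apart between RBPJ-null and control Esam(lo) under any of these alternatives, and none was at the 1.5-fold threshold.

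Rab31 was lower on the control Esam(hi) than on the control Esam(lo) array by every alternative that gave a single-gene value, from -1.94 to -1.40, and Rab32 from -1.37 to -1.02. Of 2 alternatives chosen after seeing the data, reading Rab11b by its other probe set gave 4 and 5 Rab genes, and holding values below background at background gave 5 and 6, with 3 and 3 partner genes. With values so held, 10.3% of all genes were lower on the control Esam(hi) than on the control Esam(lo) array. For RBPJ-null against control Esam(hi), 11.4% of all genes were then higher on the array labelled RBPJ-null. No paired analysis was possible because each group has 1 array. For the same reason no replicate could be left out, and members near background have only bounds.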
